A study of Mus musculus with 5 samples.

Results

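Atf3, Fos, Fosb, Jun, Junb, Egr1, Ier2, Ier3, Klf4 and Klf6 are immediate-early and stress-response genes. They were chosen by symbol, and all 10 were found among the 27933 gene symbols of the table. Their levels were followed in single-cell RNA-seq of epithelium isolated from the ileum of C57BL/6 mice aged 8 to 12 weeks, by cell class, enterocyte state, villus position, library and surgery. The study compared mice after small bowel resection, in which a length of small intestine is removed, with mice after sham surgery. There were 3 libraries of the sham group and 2 of the resection group. No other treatment or allele is named for either group. The extent of the resection, the time since surgery and the length of the cell isolation are not given in the labels. The labels do not say whether each library came from a separate mouse, so the p-values measure the spread between these libraries, which may be technical.

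Immediate-early genes are transcribed within minutes of a signal, from factors that are already in the cell, and most of their transcripts are short-lived. Fos and Fosb pair with Jun or Junb to form the transcription factor AP-1, Atf3 is a related factor induced by stress signalling, and Egr1 is a zinc-finger factor induced through the MAP kinase pathway. Ier2 is a nuclear regulator induced by growth factors, and Klf4 and Klf6 are Krüppel-like zinc-finger factors. Klf4 is known in the intestine for its part in goblet cell differentiation and for its expression in cells that have stopped dividing. Ier3 encodes a stress-inducible regulator of cell survival and is not a transcription factor. Enzymatic dissociation of a tissue is itself known to induce many of these genes.

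Upstream sequence in the RefSeq promoter table (GRCm38.p6) was available for 8 of the 10 genes, and Egr1 and Ier2 were not among them. The 250 bases before the start site were searched for TGACG on either strand (so also CGTCA), the inner part of a cAMP response element to which factors of the CREB and ATF family bind. It was in 5 of the 8 windows, those of Fos, Fosb, Junb, Atf3 and Klf4, and in 17.8% of all 32851 windows of the same length. The full palindrome TGACGTCA, the AP-1 motif TGACTCA (either strand) and the serum response element (the CArG box) were in 0 of the 8 windows, against 1.55%, 4.46% and 1.47% of all windows. Sites farther upstream and variants of these motifs were not searched for, so a gene without a match may still have such elements. The coding-strand TATAAA was in 1 of the 8 windows, that of Fos, and in 7.59% of all windows. The 5 windows with TGACG are shown so that the letters around each match can be read, and nothing about the levels is drawn from them. The windows of Jun, Klf6 and Ier3 hold no TGACG and are not shown. Capitals mark the TGACG matches on either strand and, in Fos, the TATAAA, which starts 33 bases before the start site.
Fos, chr12:85473640-85473889, plus strand: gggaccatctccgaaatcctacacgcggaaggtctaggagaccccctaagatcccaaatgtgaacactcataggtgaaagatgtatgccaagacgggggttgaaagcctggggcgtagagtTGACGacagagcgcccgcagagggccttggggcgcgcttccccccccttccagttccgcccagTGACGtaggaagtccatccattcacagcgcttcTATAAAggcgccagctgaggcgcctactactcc
Fosb, chr7:19310046-19310295, minus strand: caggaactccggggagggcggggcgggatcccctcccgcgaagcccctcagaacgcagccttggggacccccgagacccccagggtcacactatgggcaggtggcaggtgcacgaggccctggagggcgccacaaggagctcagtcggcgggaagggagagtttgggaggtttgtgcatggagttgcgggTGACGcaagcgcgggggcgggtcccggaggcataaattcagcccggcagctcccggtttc
Junb, chr8:84978749-84978998, minus strand: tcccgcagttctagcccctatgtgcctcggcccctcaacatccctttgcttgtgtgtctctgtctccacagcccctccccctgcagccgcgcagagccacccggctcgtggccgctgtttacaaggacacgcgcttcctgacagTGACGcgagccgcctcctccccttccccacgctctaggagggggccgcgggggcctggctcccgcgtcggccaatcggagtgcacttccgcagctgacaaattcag
Atf3, chr1:191183334-191183583, minus strand: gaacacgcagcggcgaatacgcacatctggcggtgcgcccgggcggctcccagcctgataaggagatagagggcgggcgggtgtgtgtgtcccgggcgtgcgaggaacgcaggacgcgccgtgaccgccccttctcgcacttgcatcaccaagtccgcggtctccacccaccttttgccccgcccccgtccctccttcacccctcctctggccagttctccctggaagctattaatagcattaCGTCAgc
Klf4, chr4:55532476-55532725, minus strand: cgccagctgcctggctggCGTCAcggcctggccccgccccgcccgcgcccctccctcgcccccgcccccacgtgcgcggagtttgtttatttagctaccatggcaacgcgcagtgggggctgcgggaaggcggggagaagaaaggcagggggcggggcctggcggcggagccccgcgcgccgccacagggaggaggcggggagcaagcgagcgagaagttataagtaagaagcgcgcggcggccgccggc
A match is a description of the letters and does not show a bound site. In Fos the motif starts 129 and 66 bases upstream, in Fosb 60, in Junb 106, in Atf3 7 and in Klf4 232, so the windows share no position for it.

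On GRCm38 (GENCODE vM21) the genes lie on separate chromosomes apart from 2 pairs, Klf4 with Jun on chromosome 4 and Ier2 with Junb on chromosome 8. The annotated Jun gene (chromosome 4, 95049034 to 95052222, minus strand) overlaps the antisense transcript Junos. Junb (chromosome 8, 84974484 to 84978718, minus strand) overlaps Prdx2 on the other strand. The sources used here do not say whether counting used strand, so Jun and Junb counts may hold reads of these neighbours. The other members overlap no gene of the deposited gene table.

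The 5 libraries held 1402 to 7233 barcodes and 11749028 to 41281731 UMIs (unique molecular identifiers, 1 per captured transcript), with library medians of 4541 to 6240 UMIs per barcode. After filters 18235 cells were analysed, in 20 clusters, and 17761 of them fell in epithelial classes. Enterocyte-like cells numbered 10577, immature enterocyte-like cells 3926, cycling-like cells 1127, Paneth-like cells 1024, goblet-like cells 574 and stem-like cells 507, beside 474 T cell-like and 26 tuft-like cells. Any pair of libraries shared 6 to 47 cell barcodes. No cluster had the markers of fibroblasts, endothelial cells, smooth muscle or myeloid cells, and in enterocyte-like cells Dcn and Lum of the fibroblast list and Cdh5, Kdr, Plvap and Cldn5 of the endothelial list were at 0 UMIs in all libraries. Sham 1 and resection 1 stood apart from the other 3 libraries: they held 231 and 803 of the 1042 cells of an immature enterocyte-like cluster led by ribosomal protein pseudogenes. They also had the highest median share of mitochondrial counts, 13.3% and 11.6%, against 7.23 to 9.11% in the others. Most enterocyte-like clusters were likewise drawn largely from 1 library, for example a cluster led by Ccl20, Duoxa2 and Adm with 1181 of 1297 cells from sham 3. Results between surgery groups are therefore also given inside 2 sets, A (sham 1 and resection 1) and B (sham 2, sham 3 and resection 2).

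Across cell classes, the summed members were highest in enterocyte-like cells and lowest in Paneth-like and stem-like cells. Levels by class are CPM (counts scaled to the same total in each library) of the counts summed over the cells of a class in a library, and they are described without a test, because the classes were made from the same cells. The 10 genes summed to 3569 CPM ± 922 (SD, n = 5) in enterocyte-like cells, 1869 CPM ± 468 (SD, n = 5) in immature enterocyte-like cells and 1186 CPM ± 188 (SD, n = 5) in Paneth-like cells. Enterocyte-like cells were above each of the 6 other classes in every library that held at least 20 cells of that class. The low level in Paneth-like cells was not particular to the members. There 14 heat shock genes summed to 308 to 586 CPM, against 1288 to 2281 CPM in enterocyte-like cells. For 14 integrated stress response genes the sums were 320 to 447 CPM and 741 to 1275 CPM. The part of RNA composition in these class differences was not tested. By mean level 6 members were highest in enterocyte-like cells (Atf3, Fos, Fosb, Jun, Klf4 and Klf6), Egr1 and Ier3 in goblet-like cells, Junb in T cell-like cells and Ier2 in cycling-like cells. The stem-like cluster was led by Slc12a2 and Cdca7 together with replication genes (Hells, Ung, Mcm6), and sham 1 held 0 of its cells.

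The Krüppel-like factors Klf6 and Klf4 had their highest mean in enterocyte-like and their lowest in Paneth-like cells. In enterocyte-like cells Klf6 was at 977, 550 and 586 CPM for sham 1, 2 and 3, and at 611 and 456 CPM for resection 1 and 2. In stem-like cells Klf6 lay between 62.3 and 101 CPM in 4 libraries and in Paneth-like cells between 58.8 and 117 CPM in 5, so these 2 neighbours in the order overlapped and both lay below every enterocyte-like value. The mean in enterocyte-like cells was 8.09 times that in Paneth-like cells. Klf4 was at 154, 265 and 97.2 CPM in enterocyte-like cells of the sham libraries and at 386 and 194 CPM in those of the resection libraries. In immature enterocyte-like cells Klf4 lay between 36.6 and 55.8 CPM, below every value in enterocyte-like cells, with a ratio of means of 4.60. Goblet-like cells had 109 to 301 CPM of Klf4, within the range of enterocyte-like cells, which were higher in 4 of 5 libraries.

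Of the AP-1 genes Fos, Fosb and Jun had their highest mean in enterocyte-like and the next in goblet-like cells, and the order of the other classes differed between them. Fos was at 550, 571 and 622 CPM in the enterocyte-like cells of sham 1, 2 and 3 and at 1313 and 646 CPM in those of resection 1 and 2. For Fos, goblet-like cells (mean 522 CPM) and T cell-like cells (520 CPM) came next and did not differ beyond their spread, and enterocyte-like cells were above both in 5 of 5 libraries. Immature enterocyte-like, cycling-like, stem-like and Paneth-like cells followed for Fos at 355, 335, 301 and 242 CPM, neighbours whose ranges overlapped. Fosb separated enterocyte-like from goblet-like cells in only 3 of 5 libraries (means 298 and 281 CPM), and Jun did so in 5 of 5 (384 and 330 CPM). Junb, the AP-1 subunit that was highest in T cell-like cells, was at 516 CPM ± 134 (SD, n = 5) there, at 404 CPM ± 81.1 (SD, n = 5) in enterocyte-like cells and at 71.8 CPM ± 8.27 (SD, n = 5) in Paneth-like cells. Enterocyte-like cells were below T cell-like cells for Junb in every library.

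Atf3 had a mean of 356 CPM in enterocyte-like cells, from 305 in sham 1 to 463 in sham 3, and 157 CPM in immature enterocyte-like cells, with no overlap between the 2 classes. Egr1 and Ier2 varied less by class than by library. Egr1 was at 275 CPM ± 139 (SD, n = 5) in enterocyte-like cells, 286 CPM ± 132 (SD, n = 5) in goblet-like cells and 232 CPM ± 105 (SD, n = 5) in immature enterocyte-like cells, and resection 1 was the highest library in each. Ier2 means lay between 222 and 253 CPM in 6 classes, all within 1 SD of each other, and fell to 121 CPM in Paneth-like cells alone. Ier3 was near its detection limit, with class means of 3.10 to 15.1 CPM. Its counts were 58 to 260 UMIs per library in enterocyte-like cells. In goblet-like cells, where its mean was highest, they were only 1 to 15.

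**Figure D1:**
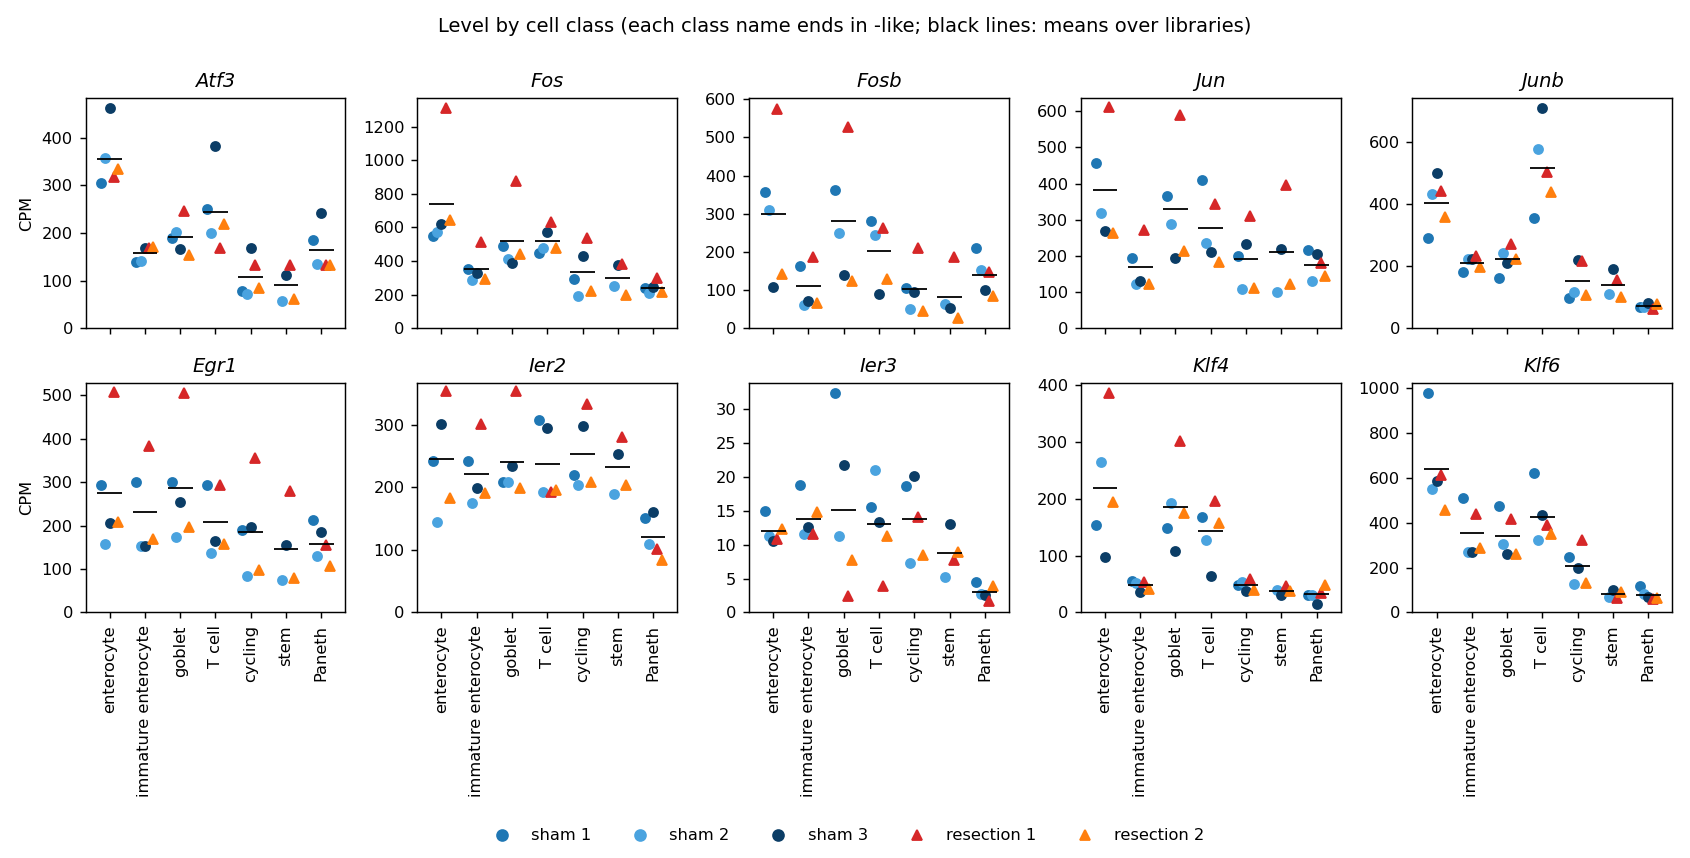
CPM of each member (vertical axes, linear, from 0) by cell class (horizontal axes), with 1 point per library and class of at least 20 cells, circles for sham, triangles for resection and black lines for means over libraries. Klf4 and Klf6 in enterocyte-like cells sit above every immature, stem-like and Paneth-like value except the Klf6 value of 508 CPM in immature cells of sham 1, while Ier2 is level over 6 classes.

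At the level of cells, thinned to 2000 UMIs each so that depth did not differ, Fos was seen in 63.9% of enterocyte-like cells, 40.4% of immature enterocyte-like cells, 37.8% of Paneth-like cells and 35.9% of stem-like cells. Without thinning the shares were 81.0%, 67.2%, 82.0% and 57.6%, at median depths of 4654, 5496, 9872 and 4875 UMIs. Klf4 was seen in 34.7%, 9.35%, 6.93% and 6.90% of the thinned cells of these classes. No class is known to lack these genes, so a background share from free RNA could not be set. The part of free RNA in these shares was not tested. A list of 10 lower villus genes, such as Reg3b, Reg3g and Gsdmc4, summed to 58303 to 111562 CPM in enterocyte-like cells. It summed to 31319 to 65308 CPM in T cell-like and to 27232 to 65549 CPM in goblet-like cells. The part of enterocyte RNA in the member levels of T cell-like and goblet-like cells was not tested. The members together gave a median of 5 to 10 UMIs per 2000 in enterocyte-like cells and 2 to 4 in immature enterocyte-like cells, by library. The tenth of enterocyte-like cells with the most member UMIs held 21.9 to 30.5% of them, so the signal was spread over most cells.

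Resection was compared with sham in each class to ask whether the operation moved these genes in the remaining ileum. No member passed the test in enterocyte-like cells (edgeR quasi-likelihood test, Benjamini-Hochberg adjusted p of 0.05 or less, 0 of 10 called), where 0% of the 10301 genes tested were called. At an unadjusted p under 0.05 there were also 0 of 10 members, against 509 of all genes, and DESeq2 called 0 members and 56 genes. The values of the tests are CPM scaled by TMM (a normalization for library composition). Fos was at 465, 640 and 671 CPM in the sham libraries, in order of number, and at 1213 and 688 CPM in the resection libraries. Both resection values lay above every sham value, by a wide margin in resection 1 and a narrow one in resection 2. The log2 difference was 0.68 ± 0.37 (SE; adjusted p 0.9996), and set A alone gave 1.38, set B alone 0.07. It was 0.22 without resection 1 and 1.04 without resection 2. Fos was the only member whose resection libraries were above all sham libraries, as were 9.62% of all genes tested.

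Klf6 was the only member whose resection libraries lay below all sham libraries, as did 7.97% of all genes tested. The 3 sham libraries had 825, 616 and 633 CPM, and resection 1 and 2 had 564 and 486 CPM. Its log2 difference was -0.40 ± 0.32 (SE; adjusted p 0.9996), and the sets taken singly gave -0.55 (A) and -0.36 (B). Without TMM scaling the groups overlapped for Klf6, since resection 1 at 611 CPM exceeded sham 2 at 550 CPM, whereas Fos kept its order.

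For Egr1, Klf4, Fosb and Jun the 2 resection libraries were far apart, with resection 1 the higher. Egr1 was at 249, 177 and 221 CPM in the sham libraries and at 469 and 222 CPM in resection 1 and 2, so resection 2 lay inside the sham range. Its log2 difference was 0.68 ± 0.38 (SE; adjusted p 0.9996), and it was 0.049 without resection 1 and 1.12 without resection 2. Klf4 was at 130, 297 and 105 CPM in the sham libraries and at 356 and 206 CPM in resection 1 and 2, with sham 2 between the resection libraries. Its log2 difference was 0.66 ± 0.49 (SE), and the sets taken singly gave 1.45 (A) and 0.22 (B). Without resection 1 it was 0.22 and without resection 2 it was 1.01. Fosb ranged from 115 CPM in sham 3 to 346 in sham 2 within the sham group, and was at 531 and 152 CPM in the resection libraries. Jun was at 564 CPM in resection 1 and at 279 CPM in resection 2, above and below all 3 sham libraries (289 to 386 CPM). Without resection 1 the log2 difference of Fosb was -0.73 and that of Jun -0.30, against 0.43 and 0.29 with all libraries. Atf3, Junb, Ier2 and Ier3 overlapped between groups, with log2 differences of -0.25, -0.10, 0.18 and -0.07.

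**Figure D2:**
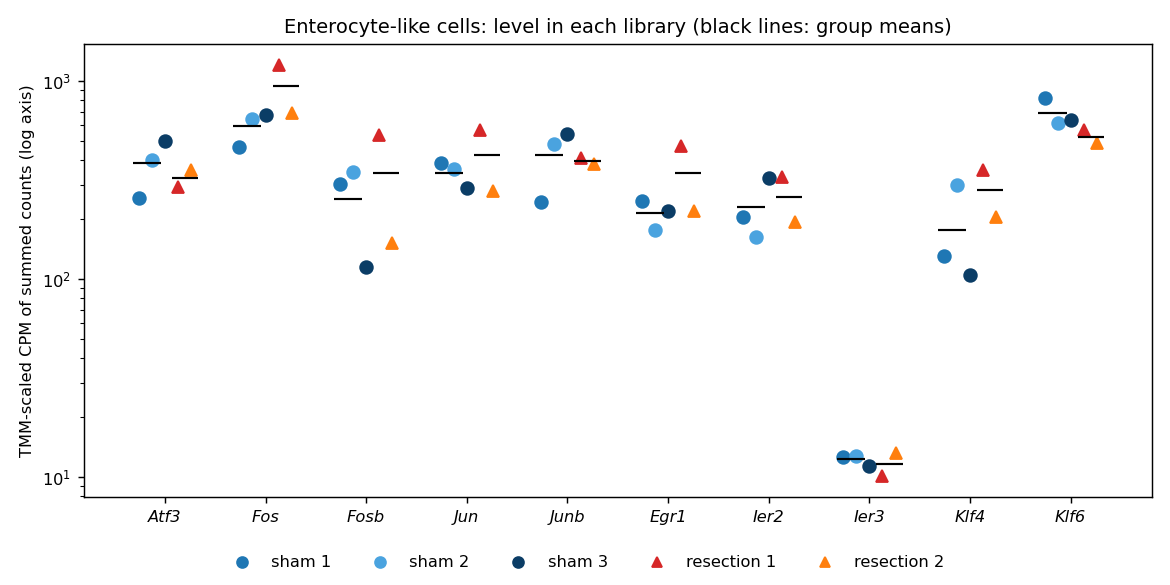
TMM-scaled CPM of each member in enterocyte-like cells (vertical axis, log scale), 1 point per library, with circles for the 3 sham and triangles for the 2 resection libraries and black lines for group means. Resection 1 is the highest library for Fos, Fosb, Jun, Egr1, Ier2 and Klf4, and both resection points lie above the sham points for Fos alone.

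In each other class tested, edgeR and DESeq2 also called 0 members. The genes called by edgeR were 0% of 10190 tested for immature enterocyte-like cells, 0% of 9551 for cycling-like cells, 0.0156% of 6393 for goblet-like cells, 0.0642% of 6233 for Paneth-like cells and 0% of 11760 for all epithelial cells together. At an unadjusted p under 0.05 there were 0 members in these classes apart from 1 in goblet-like cells. Of all genes tested, 228 of 6393 were under 0.05 in goblet-like cells. In immature enterocyte-like cells it was 157 of 10190, in cycling-like cells 130 of 9551, in Paneth-like cells 128 of 6233 and in all epithelial cells 336 of 11760. In immature enterocyte-like cells 0 members had both resection libraries above, and 0 below, every sham library, as 6.25% and 4.47% of all genes did. In cycling-like cells these counts were also 0 and 0, beside 6.06% and 4.64%. In all epithelial cells together Fos was above (7.92% of all genes) and Atf3 below (6.25%). Fos was again above all sham libraries in goblet-like cells, at 857 and 489 CPM against 398 to 466 CPM (log2 difference 0.62 ± 0.40, SE; adjusted p 0.9999), as were 10.7% of all genes there. Ier3 in goblet-like cells was the 1 member with an unadjusted p under 0.05 (0.0274 by edgeR, adjusted p 0.9999). It was at 2.37 and 8.53 CPM after resection and 12.8 to 29.7 CPM after sham, so it lay below all sham libraries, as did 7.29% of all genes. These Ier3 values rest on only 1 to 15 UMIs per library. In Paneth-like cells 8 of the 10 differences were below 0, with a median log2 difference of -0.44. Over all genes tested there 3079 of 6233 were below 0, with a median of 0.0052. The fall was not particular to the members. Below 0 were also 23 of 27 other immediate-early genes (median -0.53), 10 of 10 heat shock genes and 10 of 11 integrated stress response genes. Klf6 was below all sham libraries in Paneth-like cells (71.6 and 49.1 CPM against 74.7 to 123 CPM), as were 6.34% of all genes there. Klf4 was above all of them (42.1 and 36.4 CPM against 16.5 to 32.0 CPM), as were 7.59%. The members' median log2 difference was 0.23 in enterocyte-like and 0.16 in immature enterocyte-like cells, beside -0.02 and -0.01 over all genes tested. Stem-like cells were not tested because sham 1 held none. Markers of T cells, the other cell type that formed a cluster, summed to 51.9 to 121 CPM in the enterocyte-like cells of the sham libraries and to 31.1 and 98.2 CPM in those of the resection libraries, with 0 of the 9 measured markers at 0 everywhere. Their part in these differences was not tested.

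Along the villus axis most members rose. Each cell of the enterocyte lineage (14503 enterocyte-like and immature enterocyte-like cells) was placed by a score, the log2 ratio of 6 villus tip landmarks (such as Ada, Nt5e and Slc28a2, purine metabolism genes of the tip) to 10 lower villus landmarks (such as Reg3b, Reg3g and Gsdmc4), each plus 1, on counts thinned to 2000 UMIs. None of the members is a landmark. The cells of each library were cut by score into lower, middle and upper zones of equal size, and the upper zone was compared with the lower, with the library as a block. Of the 10 members 9 were called higher in the upper zone and 0 lower, where 31.7% of the 10118 genes tested were called, 16% higher and 15.7% lower. The members' median log2 difference was 0.61, beside -0.01 over all genes tested. For this rise and for the class differences, induction during cell isolation and levels in the tissue cannot be told apart here.

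Klf4 rose most. In the lower zones its level was 92.6, 121 and 49.6 CPM for the sham libraries, and 135 and 70.8 CPM for the resection libraries. In the upper zones it was at 133, 317 and 135 CPM in the sham libraries and at 487 and 367 CPM in the resection libraries. Every library rose, by 1.56 ± 0.20 on the log2 scale (SE; edgeR adjusted p 0.000745), and the middle zones lay between in 4 of 5 libraries. Fos went from 385, 397 and 389 CPM in the lower zones of the sham libraries to 459, 656 and 839 CPM in their upper zones, and from 686 and 400 to 1491 and 986 CPM in the resection libraries (log2 difference 0.92 ± 0.15, SE; edgeR adjusted p 0.00171). The lower zones of 4 libraries were alike for Fos, between 385 and 400 CPM, and resection 1 was above them.

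Jun, the main partner of Fos, rose by 1.03 ± 0.12 on the log2 scale (SE; edgeR adjusted p 0.000477), with the upper zones of 4 libraries between 368 and 396 CPM and resection 1 at 660 CPM. Fosb rose by 0.97 ± 0.14 (SE; adjusted p 0.00109), from 73.7 to 273 CPM in the lower zones to 148 to 634 CPM in the upper zones. Junb rose by 0.62 ± 0.11 (adjusted p 0.00273), Atf3 by 0.60 ± 0.14 (adjusted p 0.00767) and Klf6 by 0.51 ± 0.12 (adjusted p 0.00898), each in 5 of 5 libraries. Atf3 and Egr1 were not called when the immature enterocyte-like cells were left out (log2 differences 0.30 and 0.28). Ier2 rose by 0.46 ± 0.14 in 5 of 5 libraries (adjusted p 0.0260) and Egr1 by 0.39 ± 0.11 in 4 of 5 (adjusted p 0.0218), sham 1 being the exception for Egr1 (248 CPM in the lower and 246 CPM in the upper zone). Neither Egr1 nor Ier2 was called without sham 2, without sham 3 or without resection 1, with log2 differences of 0.40 and 0.49, 0.30 and 0.26, and 0.33 and 0.46. Without the library block, which leaves the spread between libraries in the error, 0 members were called and the log2 differences were 0.43 to 1.63 for the 9 genes. Ier3 was not called (0.17 ± 0.13, SE; adjusted p 0.341), and it was higher in 4 of 5 libraries.

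Sham 1 had the smallest rise of the 5 libraries for Klf4, Fos, Fosb, Jun, Junb, Atf3, Egr1, Ier2 and Klf6. Its rise was 0.52 for Klf4, 0.25 for Fos and 0.08 for Klf6 on the log2 scale, against medians over libraries of 1.43, 1.11 and 0.44. Its zones were also the least separated, with a median score 1.91 higher in the upper than in the lower zone, against 2.10 to 3.14 in the other libraries. The upper zones differed from the lower zones in other ways. Enterocyte-like cells made up 76.1 to 96.6% of the upper and 47.9 to 74.6% of the lower zones. Median UMI counts per cell were lower in the upper zone in every library, by the most in sham 2 (3618 against 4916), and the median mitochondrial share was higher by at most 1.45 percentage points. The part of depth and of mitochondrial share in the rise was not tested beyond 2 alternatives. With cells of at most 10% mitochondrial counts Egr1 and Ier2 lost their calls, and with thinned counts 9 members were called.

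**Figure D3:**
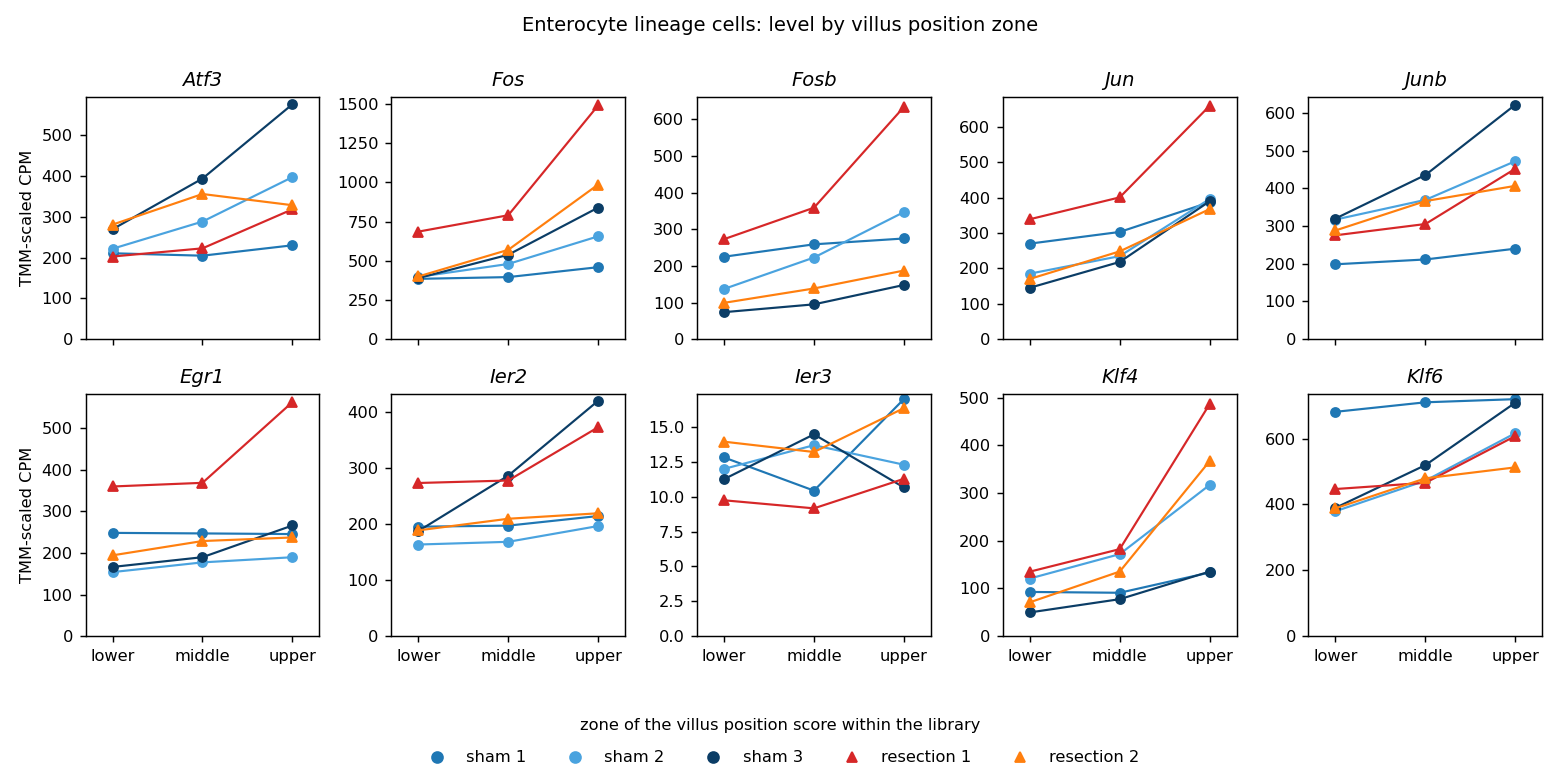
TMM-scaled CPM of each member (vertical axes, linear, from 0) in the lower, middle and upper zone of the villus position score within each library (horizontal axes), 1 line per library, with circles for sham and triangles for resection. All 5 lines climb for Klf4, Fos, Fosb, Jun, Junb, Atf3, Ier2 and Klf6 between the lower and the upper zone, and resection 1 (487 CPM) and resection 2 (367 CPM) end highest for Klf4.

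The test of the difference between the surgery groups, an interaction of position and group, called 1 member of 10, Klf4, which rose more after resection, and 0 members in the other direction. Of the 10118 genes tested 3.68% were called, 1.03% higher and 2.65% lower after resection. The rise of Klf4 from lower to upper zone was 0.52, 1.39 and 1.43 on the log2 scale for sham 1, 2 and 3, against 1.84 and 2.36 for resection 1 and 2, with no overlap between the groups. The difference was 0.97 ± 0.24 (SE; edgeR adjusted p 0.0339). The separation of the zones moved with it: the median score of the upper zone exceeded that of the lower zone by 1.91, 2.10 and 2.13 in the sham libraries and by 2.77 and 3.14 in the resection libraries. Between surgery groups, the 5 tip landmarks tested in enterocyte-like cells had a median log2 difference of 2.12, and edgeR called 0 of them (3 at an unadjusted p under 0.05) and DESeq2 called 2, Ada and Enpp3, both higher after resection. Summed, the 6 landmarks overlapped between the groups, at 865, 1310 and 1255 CPM in the sham and 1050 and 1243 CPM in the resection libraries. A steeper rise of Klf4 and a wider span of positions cannot be told apart here. The call did not hold without sham 2, without sham 3 or without resection 2 (differences of 1.10, 1.12 and 0.73), with 2 zones in place of 3 (0.73) or with thinned counts (0.69). Fos had the next largest difference, 0.53 ± 0.20 (SE; adjusted p 0.182), with rises of 0.25, 0.72 and 1.11 in the sham and 1.12 and 1.30 in the resection libraries. The other 8 members had differences between -0.26 and 0.20.

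The enterocyte lineage was also divided into 8 states, sub-clusters made after scaling genes within each library and without the members or the gene lists below. State 1, led by Lct and Apoa4 (lactase and an apolipoprotein of dietary fat transport), summed to 4082 CPM of the 10 members, between 3121 and 5790 CPM over the 5 libraries. State 3, led by Dmbt1, Ccnd1 and Gsdmc4, summed to 1882 CPM, between 1339 and 2558 CPM, and was below state 1 in each library. States 2 (Fabp6, an ileal bile acid binding protein) and 4 (Ms4a18, F3 and Edn1) lay between at 2945 and 2541 CPM. Klf4 was highest in state 6, led by the tip gene Ada, at 482, 829 and 490 CPM in sham 2, resection 1 and resection 2, the 3 libraries with at least 20 of its cells. In state 3 it lay between 36.4 and 52.9 CPM in all 5 libraries. State 5, led by Sgk1, Pck1 and Angptl4, made up 20.5% of the lineage cells of resection 1 and 0.407 to 1.30% of those of the other 4 libraries, and its member sum was 6457 CPM in resection 1 and 3173 to 3943 CPM in the 3 others with at least 20 cells.

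When the members and lists were allowed to shape the states, 10 states formed. These values describe the states and support nothing, since the genes were used to make them. The highest mean member sum was that of state 6, led by Sgk1, Pck1 and Angptl4, at 3700 CPM in sham 3 and 6569 CPM in resection 1, the 2 libraries with at least 20 of its cells. State 1, led by Apoa4 and Lct, summed to 2845 to 5997 CPM, and state 7, led by the interferon-induced genes Isg15 and Ifit1, to 3183 to 5062 CPM in 4 libraries. State 3, led by Adm, Ccl20 and Bmp2, summed to 3436 to 5492 CPM of the members. Areg (amphiregulin, a ligand of the EGF receptor) was lower among its leading genes. State 5, led by Edn1, F3 and Areg, summed to 3272 to 4845 CPM of the members. State 4, led by Fabp6, Gsta1 and Reg3a, summed to 739 to 1369 CPM. The low state made up 12.4 to 23.0% of the lineage cells in all 5 libraries, and states 3 and 5 were likewise present in each. State 3 made up 23.5 to 26.9% in the sham libraries and at most 15.99% in the resection libraries. The low state was also less frequent in both resection libraries, at most 16.75% against at least 17.65% in sham. State 1 was more frequent there, at least 23.3% against at most 18.8%. State 5 overlapped between the groups, at 6.93 to 12.0% over all libraries. The difference in these shares between surgery groups was not tested. Heat shock genes did not follow the order of the member sums. Their sum was 1237 to 2022 CPM in state 3 and 1295 to 2309 CPM in the low state 4. It was highest, at 3129 to 5182 CPM, in state 2, led by Dmbt1 and Ccnd1.

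**Figure D4:**
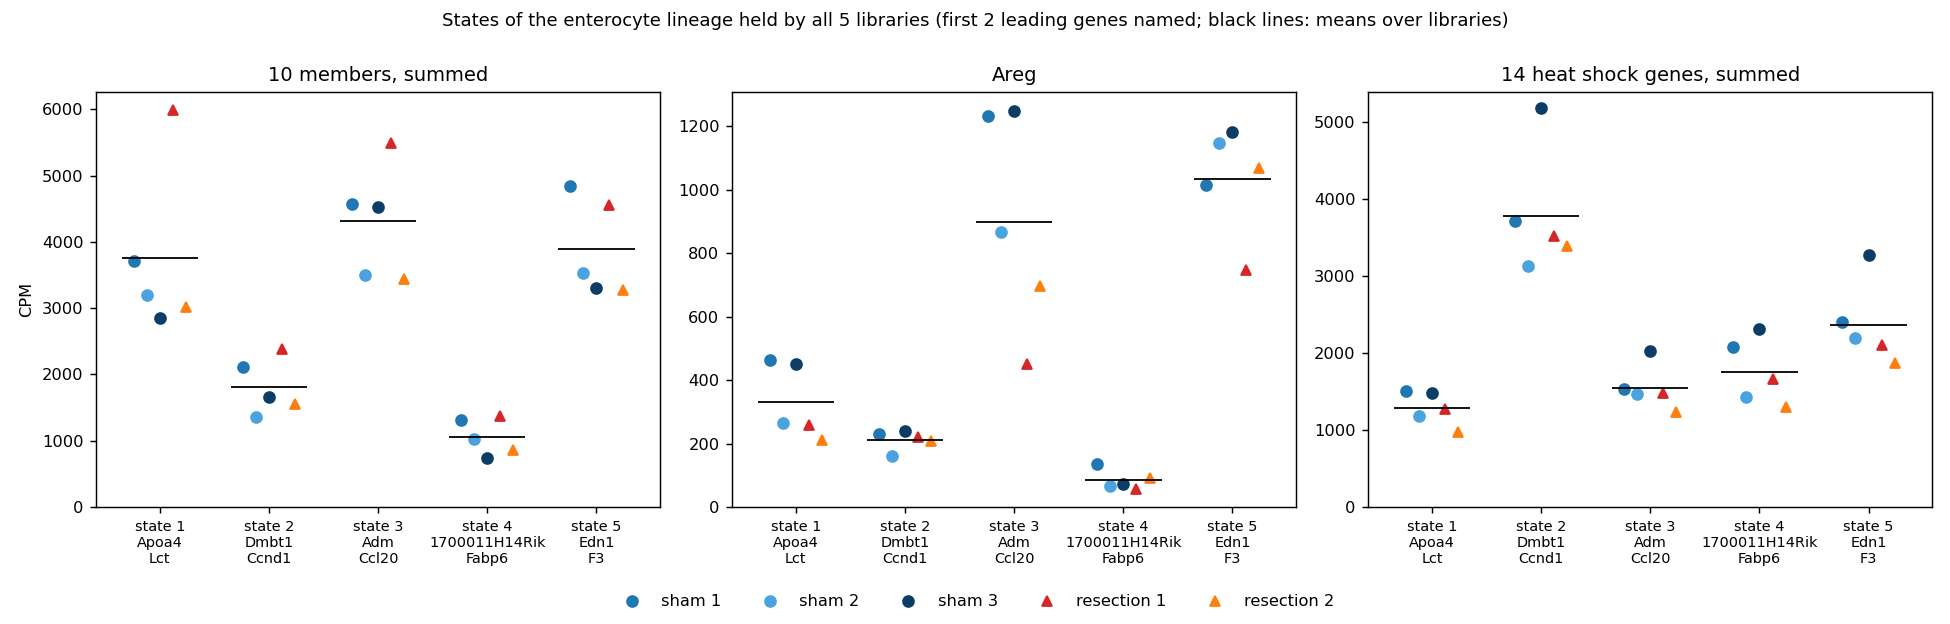
CPM (vertical axes, linear, from 0) of the 10 members summed, of Areg and of 14 heat shock genes summed in the 5 states that each library holds at 20 or more cells, from the division in which members and lists were kept; points are libraries, circles sham and triangles resection, and black lines are means. Member sums are lowest in state 4 (739 to 1369 CPM) and heat shock sums highest in state 2 (3129 to 5182 CPM).

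Other immediate-early genes shared the rise toward the upper villus. Of 34 listed, 31 were tested by position, and 15 were called higher and 2 lower, with a median log2 difference of 0.44. Over all genes tested by position, 16% were called higher and 15.7% lower, the shares against which this count and those of the lists that follow stand. Sgk1, a kinase induced by steroid hormones and growth factors, rose by 1.78 ± 0.19, Rhob, a small GTPase, by 1.03 ± 0.15 and Btg2, an antiproliferative factor, by 0.95 ± 0.14 (SE; edgeR adjusted p 0.000285, 0.00111 and 0.00109). Plk2, Zfp36, Maff, Per1, Fosl2, Plk3, Gadd45g, Trib1, Mcl1, Btg1, Ier5 and Jund also rose, and Cebpb and Gadd45b fell. Feedback inhibitors of MAP kinase and NF-kB signalling had 4 of 14 tested called higher and 1 lower, in all near the 31.7% of all genes. Dusp6 and Dusp1, phosphatases that switch off MAP kinases, rose by 1.32 ± 0.21 and 1.02 ± 0.18, Errfi1, an inhibitor of the EGF receptor, by 0.59 ± 0.12, and Nfkbia also rose, while Spred1 fell. Among the EGF receptor and its ligands 2 of 8 tested were called, Hbegf (0.57 ± 0.12) and the receptor Erbb3 (0.38 ± 0.09), both higher, a count no larger than the share of all genes called. Ereg was at 0.23 ± 0.18 (adjusted p 0.358).

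Heat shock genes went mostly the other way. Of 14 tested by position, 6 were called lower and 3 higher (all genes: 15.7% and 16%), with a median log2 difference of -0.40. The mitochondrial chaperones Hspe1 and Hspd1 fell by 0.96 ± 0.21 and 0.76 ± 0.20 on the log2 scale and Hsph1 by 0.89 ± 0.23, and Hsp90ab1, Hspa1a and Hspa1b also fell. Hspb1 rose by 2.43 (edgeR adjusted p 0.00440), the largest change called in this list, at a mean under 20 CPM. Dnajb1 and Dnajb4 rose by 0.71 and 0.47. Of 12 integrated stress response genes tested, 4 were called higher and 1, Asns, lower (all genes: 16% and 15.7%). Ddit3 (CHOP), a factor of that response, rose by 0.88 ± 0.14, Herpud1 by 0.79 ± 0.11 and Ppp1r15a by 0.72 ± 0.20, and Trib3 also rose.

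Between surgery groups, edgeR called 0 genes of these 5 lists in enterocyte-like cells, as it called 0% of all genes, and DESeq2 called 1, Dusp6. At an unadjusted p under 0.05 (edgeR) were 1 of 30 other immediate-early genes tested and 1 of 14 feedback inhibitors. So were 1 of 8 genes of the EGF receptor list, 2 of 14 heat shock genes and 3 of 11 integrated stress response genes. Over all genes tested it was 509 of 10301. The median log2 difference was -0.16 over the other immediate-early genes, -0.48 over the feedback inhibitors and 0.0042 over the EGF receptor and ligands, beside -0.02 over all genes. In the list of other immediate-early genes the 3 largest differences were those of Phlda1 (-1.70 ± 0.86), Sgk1 (1.42 ± 0.66) and Cebpb (-0.91 ± 0.27; SE). Sgk1 was at 112, 178 and 26.9 CPM in the sham and 349 and 217 CPM in the resection libraries, with both resection values above the sham values, as for 9.62% of all genes. Dusp6 was at 24.0, 26.7 and 30.8 CPM in the sham and 83.7 and 59.3 CPM in the resection libraries, a log2 difference of 1.39 ± 0.27 (SE; edgeR adjusted p 0.375) that DESeq2 called (adjusted p 0.00890). Set A alone gave 1.80 and set B alone 1.04. Dusp1 (0.80) and Dusp8 (-0.73) were the next of the feedback inhibitors. For Areg and Ereg each resection value lay under the lowest sham value, as for 7.97% of all genes, with Areg at 642, 707 and 907 CPM in the sham and 247 and 525 CPM in the resection libraries (-0.96 ± 0.42, SE; edgeR adjusted p 0.9996) and Ereg by -0.85 ± 0.34, while Erbb3 was at 0.26. The median difference was -0.43 over 14 heat shock genes, with Hspe1 (-0.76), Hsp90ab1 (-0.69) and Hspd1 (-0.59) the largest. It was -0.32 over 11 integrated stress response genes, with Hspa5 (-0.79), Ppp1r15a (-0.42) and Atf4 (-0.32) the largest.

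Within enterocyte-like cells, member UMIs were more closely correlated with other immediate-early genes than with heat shock genes. On thinned counts, the Pearson correlation over the cells of a library between the summed members and the summed other immediate-early genes was 0.46 to 0.67. With heat shock genes it was -0.04 to 0.11, and 0.06 to 0.31 in immature enterocyte-like cells, where that with other immediate-early genes was 0.40 to 0.52. In enterocyte-like cells it was 0.26 to 0.56 with Areg, -0.04 to 0.19 with mitochondrial share and -0.05 to 0.16 with log depth. These cells share a library, so the coefficients carry no p-value. Pairs of single members were only weakly correlated in these sparse counts, with a median over libraries of at most 0.26, for Fos with Egr1. Over 55 points of library by cluster with at least 20 cells, genes among those most like the members' mean (4702 genes, centred within library) were Ifrd1 (Pearson r 0.92), Rhob (0.92), Neat1 (0.91) and Zfp36 (0.91). Points of 1 library share its depth, and the correlation describes them only. Among the members Fos was closest to the mean to which it contributes (0.96) and Ier2 the farthest of the 9 with enough counts (0.47).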

How the data were processed

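Raw UMI counts per gene and barcode were deposited by the authors, 1 matrix per library of 10x Genomics 3′ v2 chemistry. They were made with Cell Ranger, per the labels, whose version is marked as uncertain there, and the build is mm10 (GRCm38), per the submitters' processing notes. Barcodes under 500 genes or over 20% mitochondrial counts were dropped (18955 of 19404 stayed), and 720 predicted doublets were removed, at 0.8% per 1000 cells. Members and lists were left out of the 2000 variable genes, and cells were clustered on 30 components and 20 neighbours (leidenalg 0.10.2, resolution 1.0; 0.5 for states). Classes were named from marker lists by a scoring rule chosen after the clusters were seen. Counts were summed per library and class of at least 20 cells and tested with edgeR 4.0.16 (TMM, quasi-likelihood, R 4.3.3), or with DESeq2 1.42.0. On simulated data edgeR recovered 4% of genes changed by 1 and 73% of those changed by 2 on the log2 scale between surgery groups (10301 genes), and 88% and 99% by position (10118 genes). All members are named. From each list the 3 genes of at least 20 CPM with the largest difference are named, as is any list gene past the threshold. The members and lists were chosen with earlier results of these data known. Not every gene whose pattern was like that of the members is reported here.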

Additional observations from a re-analysis of the deposited data

Results flagged for a closer look

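The rise or fall from the lower to the upper villus zone was compared between resection and sham libraries by an interaction test (edgeR, Benjamini-Hochberg adjusted p). It differed for 6 genes among the 10 members and the 3 genes named per list. Of all 10118 genes tested 3.68% were called, 1.03% higher and 2.65% lower after resection. The named list genes were picked for the largest position differences in these same data. Klf4 rose more after resection, by 0.97 on the log2 scale (adjusted p 0.0339), and Sgk1 likewise by 0.99 (adjusted p 0.0183). The call of Klf4 did not hold with 2 zones in place of 3 or with thinned counts. Ereg had a difference of -0.90 (adjusted p 0.0457). The heat shock genes Hspe1, Hsph1 and Hspd1 had differences of -1.01, -1.44 and -1.10 (adjusted p 0.0396, 0.00510 and 0.00707). The lower and upper zones were farther apart in score in both resection libraries (2.77 and 3.14) than in the 3 sham libraries (1.91 to 2.13), and this span and the surgery group cannot be told apart.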

How the results depend on the processing

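No alternative called a member between surgery groups in enterocyte-like, immature enterocyte-like, cycling-like, goblet-like or all epithelial cells. The count of all genes called in enterocyte-like cells was 0 in the reported fit, 56 with DESeq2, 227 with no filter on low counts, 5 with the set as a term, 21 with cells of at most 10% mitochondrial counts, and 1 each with doublets kept, with thinned cells and with members and lists among the variable genes. Leaving out 1 library gave 0 to 3. The replicate number as a block pairs libraries by a number only. Correlations of deviations were 0.57 for the libraries numbered 1, 0.12 for those numbered 2 and 0.55 for sham 3 with resection 2. With 2 resection libraries, the correlations of one are those of the other with the sign reversed. With this block 76 genes were called in enterocyte-like cells and 1 member, Klf6, in Paneth-like cells (-0.77, edgeR adjusted p 0.0480). The share of all genes called in Paneth-like cells under this block was not recorded, so the call of Klf6 has none to stand against. In enterocyte-like cells the log2 differences of Atf3, Fosb and Junb changed sign under the block to 0.016, -0.18 and 0.20. Junb was 0.079 with the set as a term, and Ier3 was 0.010 with genes scaled within library before clustering. Leaving out 1 library moved Ier2 from -0.24 to 0.51, Junb from -0.38 to 0.12, Fosb from -0.73 to 1.07, Jun from -0.30 to 0.71 and Ier3 from -0.28 to 0.11. By position 3206 genes and 9 members were called. Without the library block the counts were 10 and 0, and with enterocyte-like cells only 2011 genes were called. The tip landmarks alone, an alternative chosen after seeing the data, gave 5624. Leaving out 1 library gave 1521 (without resection 1) to 3896 genes and 7 to 9 members. For the difference of the position effect, 372 genes and 1 member were called, 121 and 0 with 2 zones in place of 3, 223 and 0 with thinned cells, and 23 (without resection 2) to 591 genes and 0 to 1 members when 1 library was left out. There Junb was -0.0073 with 2 zones and -0.031 with thinned cells, and leaving out 1 library moved Fosb from -0.088 to 0.43, Jun from -0.20 to 0.24, Junb from -0.14 to 0.19, Ier2 from -0.37 to 0.15 and Klf6 from -0.34 to 0.046. The cause of these changes was not tested.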
